A study of Mus musculus with 2 samples.

Results

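Contacts between chromosome 1 and the ends of the mouse chromosomes that can carry ribosomal DNA were examined in Hi-C libraries of embryonic stem (ES) cells. Hi-C ligates DNA fragments that formaldehyde has fixed next to each other, and each sequenced pair records 1 contact. A pair was counted when one side mapped to 3 to 90.75 Mb of chromosome 1 and the other to 3 to 23 Mb of chromosome 12, 15, 16, 18 or 19 (assembly GRCm38). There were 121723 such pairs among 5767991 pairs of this stretch in wild-type cells and 97112 among 4412861 in *Lin28a* knockout cells. They made up 5.44% and 5.65% of the trans pairs of the stretch with other autosomes. The comparison set was the same 20 Mb of the 13 other autosomes, chromosomes 2 to 11, 13, 14 and 17, with 284857 and 246390 pairs.

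In the mouse, every chromosome has its centromere at one end, so the first megabases of the assembled sequence are the ones next to the centromere. Tandem arrays of ribosomal RNA genes, the nucleolus organisers, lie beside the centromeres of a few chromosomes, and which of chromosomes 12, 15, 16, 18 and 19 carry them varies between strains. Active arrays gather in nucleoli, where ribosomal RNA is made, and centromeres of different chromosomes cluster in chromocentres. *Lin28a* encodes an RNA-binding protein of pluripotent cells that binds precursors of the let-7 microRNAs and that the study also followed in the nucleolus. The arrays themselves are not in the assembled chromosomes, so the ends stand for unique sequence near them, and which arrays these cells carry was not measured.

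The wild-type cells and the *Lin28a* knockout cells were both grown on gelatin with mouse embryonic fibroblast feeders in LIF/2i medium for 2 days and fixed with 1% formaldehyde. The study used knockout ES clones made with a guide RNA against the second exon, in E14 cells unless V6.5 was named, and also ES cells taken from knockout mice, and its methods do not say which line gave the Hi-C library, so whether both groups share a strain is not given. The feeder cells are a second cell type whose share of the pairs was not measured. The labels mention 2 replicates, yet each group has 1 list of pairs with 2 sequencing runs, so replicates were not separable and the groups were not tested against each other. All intervals are 95% intervals of counting error alone, and wild-type cells and knockout cells stand below for these 2 libraries. *Lin28a* itself, on chromosome 4 from 134003330 to 134018841, received 12 trans ends in wild-type cells and 15 in knockout cells. These counts are low and the change made to the gene in this library is not given, so they do not check the knockout.

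The 5 ends differ in sequence as well as in their possible arrays. Their chromosomes are among the shorter autosomes, from 120 Mb for chromosome 12 down to 61.4 Mb for chromosome 19. Chromosome 19 has 392 protein-coding genes in its end and chromosome 16 has 231, while chromosomes 12, 15 and 18 have 72, 67 and 74. Of the 5 ends, that of chromosome 16 had the highest GC content, 43.8%, and that of chromosome 15 the lowest, 39.0%. Among the comparison ends, chromosome 7 has 419 genes and 42.2% GC and chromosome 4 has 79 genes and 39.8% GC.

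The first question was how much of each partner's contact with chromosome 1 fell on its end. In the wild-type library the end took 19.1% of the pairs with chromosome 12, 18.95% with chromosome 15, 29.5% with chromosome 16, 25.2% with chromosome 18 and 36.9% with chromosome 19. In the knockout library the same shares were 21.3%, 21.1%, 31.7%, 26.8% and 38.9%. All 5 shares were higher in knockout cells, by ratios from 1.05 to 1.12. The ends of the 13 other autosomes also had higher shares there, with ratios from 1.01 to 1.25 and a median of 1.12. Pooled, the 5 ends went from 25.1% to 27.2%, a ratio of 1.084 (interval 1.076 to 1.092), and the 13 other ends went from 16.3% to 18.1%, a ratio of 1.112 (1.107 to 1.118). The first ratio divided by the second was 0.974 (0.966 to 0.983), so as pooled counts the ribosomal DNA chromosome ends gained slightly less than the other ends. The ratios of all 5 single ends lay within the range of the 13. Without chromosomes 6 and 8 in the comparison set the value was 0.980 (0.971 to 0.989). In the smaller sequencing run of each library that value was 1.018 (0.981 to 1.056).

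Contacts were also set against sequence length. Per assembled base, the end of chromosome 16 received 1.40 times the contact of its whole chromosome in wild-type cells and 1.51 times in knockout cells. For chromosomes 12, 18 and 19 the wild-type values were 1.12, 1.10 and 1.08, and for chromosome 15 the value was 0.958. The 13 other ends ran from 0.826 (chromosome 7) to 1.37 (chromosome 2), a range that took in all of the 5 but chromosome 16, and from 0.954 to 1.54 in knockout cells, which took in all of the 5. Along the ends the pooled density was 1.32 times the chromosome mean in the 5 Mb next to the centromere and 0.904 times in the step from 18 to 23 Mb of wild-type cells, and 1.46 and 0.966 times in knockout cells. In the 13 other autosomes the same steps had 1.12 and 1.12 in wild-type cells and 1.28 and 1.23 in knockout cells.

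The second question was which parts of chromosome 1 favoured the 5 ends. For each of 88 bins of 1 Mb the number of pairs with the 5 ends was divided by the number with the 13 other ends, and the log2 of this ratio over the ratio of the whole stretch is called the preference. A preference above 0 means that a bin met the ribosomal DNA chromosome ends more often, relative to other ends, than chromosome 1 did on average. Bins held a median of 1421 pairs with the 5 ends in wild-type cells (lowest 411, highest 2253) and 1124 in knockout cells (343 to 1920), which gave intervals with a median half-width of 0.091 and 0.10. A bin was called when its interval left out 0. In the wild-type library 30 bins were higher (34.1% of those compared) and 24 lower (27.3%), and in knockout cells 37 were higher (42.0%) and 23 lower (26.1%). The same direction was called in both libraries for 29 higher bins (33.0%) and 18 lower bins (20.5%), and 0 bins were called in opposite directions. The profiles of the libraries had a correlation of 0.93 across the 88 bins, which share base composition and neighbours and are not independent points.

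Preference rose with distance from the centromere of chromosome 1. In the wild-type library it ran from -0.32 in the first bin to 0.33 in the bin from 87 to 88 Mb, and in knockout cells from -0.57 in the first bin to 0.59 in the last. Of the first 20 bins, 14 were called lower and 0 higher in wild-type cells and 17 lower and 0 higher in knockout cells. Of the last 20 bins, 17 were called higher and 1 lower in wild-type cells and 18 higher and 0 lower in knockout cells. The pooled preference of the first 20 bins minus that of the last 20 was -0.35 (-0.38 to -0.33) in wild-type cells and -0.60 (-0.63 to -0.57) in knockout cells. Across bins the correlation of preference with distance was 0.83 (Spearman 0.83) and 0.88 (Spearman 0.88). The step was larger in knockout cells by 0.25 on the log2 scale (knockout minus wild-type -0.25, interval -0.29 to -0.20).

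**Figure D1:**
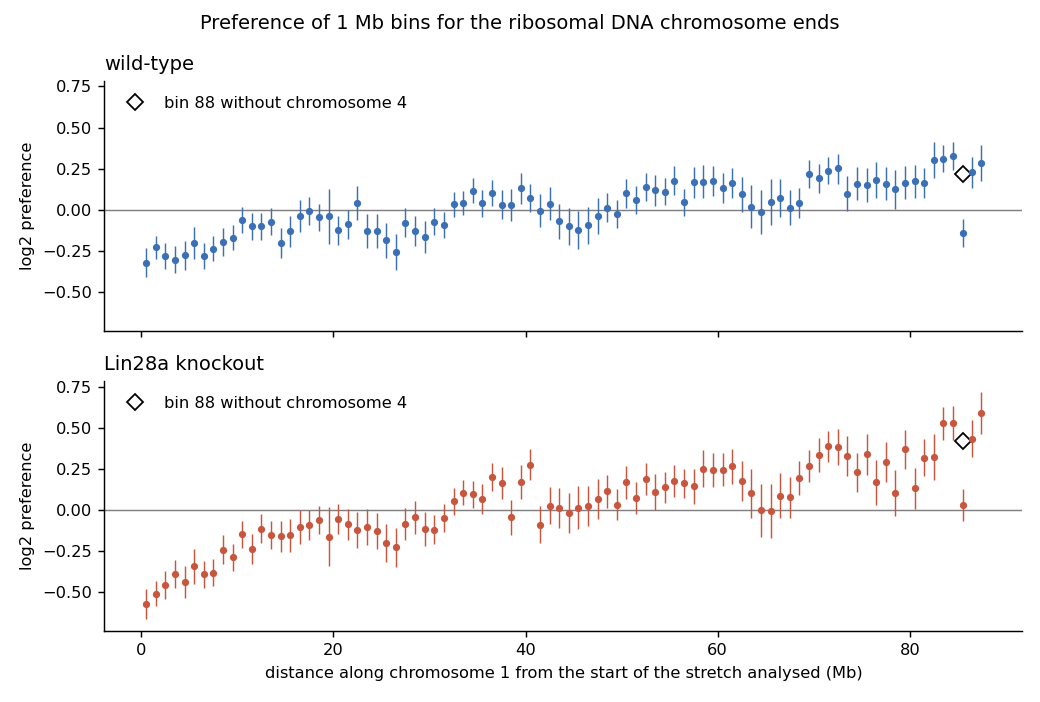
Preference of each of the 88 bins for the 5 ribosomal DNA chromosome ends over the 13 other ends, against distance along chromosome 1 in Mb. Points are bins with 95% counting intervals, and the open diamond is the bin from 88 to 89 Mb without chromosome 4. Values climb from -0.32 in the first bin of wild-type cells and -0.57 in that of knockout cells to 0.28 and 0.59 in the last bin.

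One bin near the far end broke the trend. The bin from 88 to 89 Mb had a preference of -0.14 (-0.22 to -0.055) in wild-type cells and 0.027 (-0.071 to 0.12) in knockout cells, between neighbours at 0.33 and 0.23 and at 0.53 and 0.43. Its low value came from the comparison set. With the end of chromosome 4 it had 1134 pairs in wild-type cells and 884 in knockout cells, where the other bins had medians of 240 and 189. The 100 kb from 88.2 to 88.3 Mb held 77.6% and 77.8% of these pairs, and 50.3% and 50.8% of them fell in the first 5 Mb of the chromosome 4 end. Without chromosome 4 in the comparison set, a setting chosen after this was seen, the preference of the bin was 0.22 and 0.42. The step with distance was then -0.38 and -0.64.

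The preference is a ratio, so the contacts of each partner end were also followed on their own. The 5 ends together had 31064 pairs with the first 20 bins and 26672 with the last 20 in wild-type cells, a log2 ratio of 0.22 (0.20 to 0.24). The 13 other ends had 81998 and 55094, a log2 ratio of 0.57 (0.56 to 0.59). In the knockout library the 5 ends had 26306 and 19026 pairs (0.47, interval 0.44 to 0.49) and the other ends 81269 and 38795 (1.07, interval 1.05 to 1.08). Chromosome ends thus had more raw pairs with the near bins of chromosome 1 than with the far bins in both sets, and the excess was smaller for the ribosomal DNA chromosomes. From wild-type to knockout the log2 ratio was higher by 0.25 (0.21 to 0.28) for the 5 ends and by 0.49 (0.47 to 0.52) for the others.

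The 5 partners did not behave alike. The end of chromosome 16 had 6863 pairs with the first 20 bins and 7049 with the last 20 in wild-type cells and 5697 and 5088 in knockout cells. For chromosome 19 the counts were 6642 and 6262, then 5005 and 4796. For chromosome 12 they were 5059 and 4776, then 4254 and 3353. These 3 ends had almost equal numbers of raw pairs with near and far bins in wild-type cells, with log2 ratios of -0.039 (-0.087 to 0.0094), 0.085 (0.035 to 0.13) and 0.083 (0.026 to 0.14). Pairs were not balanced, so a ratio of 0 does not mark the absence of a preference. In the knockout library the ratios were 0.16, 0.062 and 0.34. Chromosome 18 was intermediate, with 6319 and 4840 pairs, then 5494 and 3217, and ratios of 0.38 and 0.77. It too lay within the range of the other autosomes, of which only chromosome 4, at 0.23 and 0.54, was lower. Its place in the range thus rested on chromosome 4 alone, and the next lowest was chromosome 14, at 0.42 and 0.97. The end of chromosome 4 had 5064 and 3634 pairs with the last 20 bins. Of these, 1134 and 884 were with the bin near the far end that broke the trend. The ratio was not computed without that bin, so whether chromosome 18 would then stay within the range was not tested. Chromosome 15 had 6181 and 3745 pairs, then 5856 and 2572, and its ratios of 0.72 and 1.19 lay within the range of the other autosomes.

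**Figure D2:**
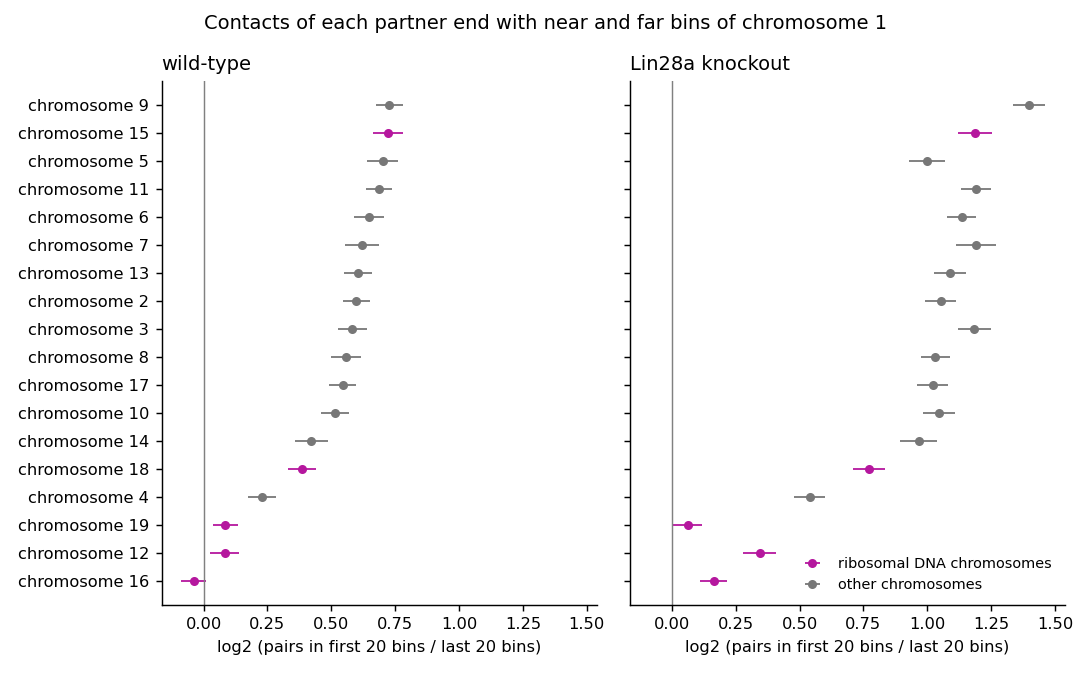
Log2 ratio of the pairs that each of 18 partner ends made with the first 20 bins of chromosome 1 over those with the last 20, in both libraries, with 95% counting intervals. The ends of chromosomes 16, 12 and 19 lie between -0.039 and 0.085 in wild-type cells, chromosomes 4 and 18 at 0.23 and 0.38, and chromosome 15 at 0.72 among the other autosomes. The value of chromosome 4 includes the bin near the far end that had many pairs with it.

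Against the 13 other ends, the step from near to far bins was -0.61 (-0.66 to -0.56) for chromosome 16, -0.49 (-0.55 to -0.43) for chromosome 12, -0.49 (-0.54 to -0.44) for chromosome 19 and -0.19 (-0.25 to -0.13) for chromosome 18 in wild-type cells. Chromosome 15 went the other way, at 0.15 (0.089 to 0.21). In the knockout library chromosome 19 had the most negative step, -1.01 (-1.07 to -0.95), followed by chromosomes 16 at -0.90, 12 at -0.72 and 18 at -0.29, and chromosome 15 was at 0.12 (0.051 to 0.19). The knockout step was more negative than the wild-type step by 0.52 for chromosome 19 (difference -0.52, interval -0.60 to -0.44), and the differences were -0.29 for chromosome 16, -0.23 for chromosome 12 and -0.11 (-0.19 to -0.020) for chromosome 18. For chromosome 15 the difference of -0.029 (-0.12 to 0.063) was within counting error. Among the 13 other ends, each against the other 12, the differences ran from -0.21 (-0.30 to -0.11, chromosome 5) to 0.19 (0.11 to 0.28, chromosome 9). Chromosome 18 lay in this range. The intervals of chromosomes 12 (-0.32 to -0.14) and 16 (-0.37 to -0.22) overlapped that of chromosome 5, and that of chromosome 19 did not.

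Each of the 13 other ends was treated in the same way against the remaining 12. Their steps ran from -0.38 (chromosome 4) to 0.17 (chromosome 9) in wild-type cells and from -0.57 (chromosome 4) to 0.36 (chromosome 9) in knockout cells. With all bins kept, chromosome 4 was thus below chromosome 18, at -0.19 and -0.29, in both libraries. When the bin from 88 to 89 Mb was left out, a setting chosen after the data were seen, chromosome 4 stood at -0.097 and -0.26. The 4 lowest of the 18 partners were then chromosomes 16, 19, 12 and 18 in both libraries, although chromosome 18 at -0.21 (-0.27 to -0.15) and chromosome 14 at -0.19 in wild-type cells, and chromosome 18 at -0.33 and chromosome 4 at -0.26 in knockout cells, had overlapping intervals. With all bins kept, the gene-rich end of chromosome 7 had a step of 0.049 (-0.021 to 0.12) and 0.13. Chromosome 19 had a similar gene number, but repeats made up 51.9% of the end of chromosome 7 and 34.4% of that of chromosome 19. Over the 18 partner ends, again with all bins kept, the step correlated at -0.22 and -0.24 with gene number. It correlated at 0.42 and 0.47 with chromosome length and at -0.60 and -0.52 with GC content of the end. Shorter chromosomes and ends of higher GC thus tended to have the more negative steps. The part of gene number, repeats, GC and length in the difference between the sets was not tested.

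In single bins the pattern of chromosomes 12, 16 and 19 was close to uniform. In the wild-type library, chromosome 16 was below 0 in 19 of the first 20 bins and above 0 in 19 of the last 20, and the counts were 19 and 19 for chromosome 19 and 18 and 19 for chromosome 12. For chromosome 18 they were 14 and 16. For chromosome 15 they were 10 and 7. When every partner's profile was expressed relative to the mean of all 18, those of chromosomes 16 and 19 correlated at 0.79 in wild-type cells and 0.84 in knockout cells, those of chromosomes 12 and 19 at 0.62 and 0.81, and those of chromosomes 15 and 16 at -0.69 and -0.72. The median over the 10 pairs among the 5 partners was 0.19 and 0.27, and over the 78 pairs among the other 13 it was 0.037 and 0.14. These correlations describe 88 shared bins, and profiles measured against a common mean are pulled apart from each other.

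**Figure D3:**
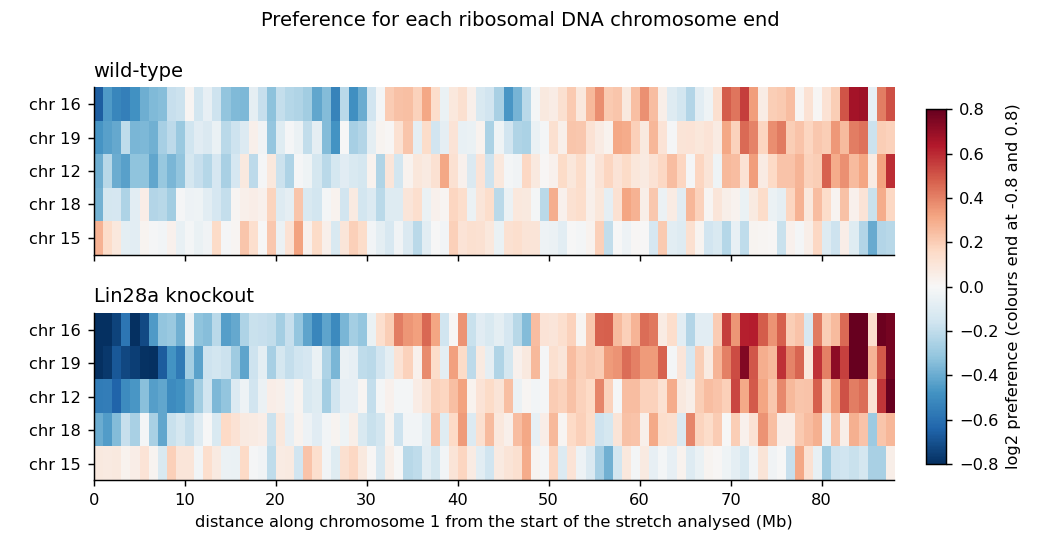
Preference of each bin of chromosome 1 for each ribosomal DNA chromosome end over the 13 other ends, with distance in Mb across and partners down, in log2 units from blue (lower) to red (higher). Chromosomes 16, 19 and 12 turn from blue to red along chromosome 1 in both libraries, chromosome 18 does so more weakly, and chromosome 15 does not, with 0.28 in the first bin and -0.22 in the last in wild-type cells and 0.080 and 0.045 in knockout cells.

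Over the whole rest of these chromosomes the step had the opposite sign, but it did not stop at the border of the ends. When all sequence beyond 23 Mb of the 5 chromosomes was compared with that beyond 23 Mb of the other autosomes, the step from near to far bins was 0.088 (0.073 to 0.10) in wild-type cells and 0.047 (0.029 to 0.066) in knockout cells. For single chromosomes it lay between -0.0078 (chromosome 12) and 0.17 (chromosome 15) in wild-type cells and between -0.095 (-0.13 to -0.060, chromosome 12) and 0.19 (chromosome 15) in knockout cells. The 13 other autosomes, each against the other 12, ran from -0.14 (chromosome 2) to 0.14 (chromosome 14) in wild-type cells. In knockout cells they ran from -0.22 (chromosome 5) to 0.23 (chromosome 10). Of the 5, only chromosome 15 in wild-type cells lay outside these ranges. In 5 Mb steps along the partners, the pooled step from near to far bins was -0.41 from 3 to 8 Mb and -0.24 from 18 to 23 Mb in wild-type cells, and -0.73 and -0.50 in knockout cells. Just past the ends, from 23 to 33 Mb, it was smaller, at -0.083 and -0.015 in wild-type cells and -0.25 and -0.17 in knockout cells. It was again as large as from 18 to 23 Mb in the stretch from 33 to 38 Mb, at -0.24 (-0.30 to -0.18) and -0.49 (-0.55 to -0.42), and was -0.21 and -0.34 from 38 to 43 Mb. The 5 chromosomes differed from each other from 33 to 38 Mb, as given below. From 43 to 58 Mb the 3 steps had 0.037 (-0.024 to 0.098), 0.14 (0.078 to 0.21) and 0.064 (0.0022 to 0.13) in wild-type cells, and -0.12 (-0.19 to -0.046), 0.063 (-0.013 to 0.14) and -0.029 (-0.10 to 0.045) in knockout cells. Over the whole stretch from 23 to 58 Mb it was -0.053 (-0.076 to -0.030) and -0.21 (-0.24 to -0.18), and beyond 58 Mb it was 0.068 (0.047 to 0.089) and 0.060 (0.034 to 0.086). The wild-type value for all sequence beyond 23 Mb lay above those of both stretches, since pooling sums the pairs of stretches that make up different shares of the 5 chromosomes and of the others, so its sign does not describe the sequence next to the ends. These steps along the partners were computed after the other results had been seen.

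Along the partners in steps of 5 Mb, the near over far ratio of the 13 other autosomes was 0.65 next to the centromere and 0.43 in the step from 18 to 23 Mb of wild-type cells, and 1.28 and 0.78 in knockout cells. From 28 to 58 Mb it lay between -0.26 and 0.12 in wild-type cells and between -0.29 and 0.21 in knockout cells. The pooled ratio of the 5 ribosomal DNA chromosomes was 0.24 and 0.55 next to the centromere, 0.19 and 0.28 from 18 to 23 Mb, -0.23 and -0.32 from 33 to 38 Mb, where the others had 0.0092 and 0.17, and -0.088 and -0.13 from 38 to 43 Mb, where the others had 0.12 and 0.21. Chromosome 15 also started high, with 0.73 next to the centromere in wild-type cells and 1.31 in knockout cells. Chromosomes 12 and 16 started at 0.19 and 0.25 in wild-type cells and at 0.47 and 0.44 in knockout cells. Chromosome 19 was the only 1 of the 5 whose first 5 Mb had a negative ratio, -0.25 (-0.35 to -0.16) in wild-type cells and -0.29 (-0.39 to -0.18) in knockout cells. Its next 3 steps were positive, at 0.13, 0.27 and 0.29 and at 0.13, 0.31 and 0.18. From 33 to 38 Mb the ratio was lowest for chromosomes 16, at -0.59 and -0.67, and 18, at -0.43 and -0.61. There chromosome 19 had -0.084 and -0.29, chromosome 12 had -0.0097 and 0.14, and chromosome 15 had 0.17 and 0.17.

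**Figure D4:**
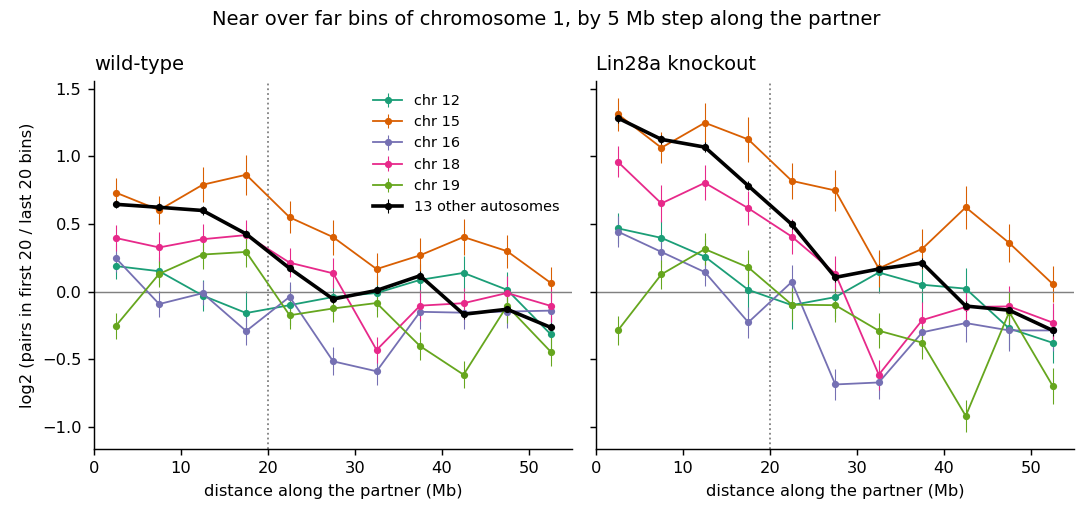
Log2 ratio of pairs with the first 20 over the last 20 bins of chromosome 1, for 5 Mb steps along each partner, with distance from the first counted position in Mb across and 95% counting intervals. The dotted line marks the end of the 20 Mb counted as the chromosome end. The black line of the 13 other autosomes starts at 0.65 and 1.28, chromosome 15 at 0.73 and 1.31, and chromosome 19 at -0.25 and -0.29.

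Gene count was the second property of the bins. The 29 bins with the fewest protein-coding genes (0 to 2) had a pooled preference of -0.053 in wild-type cells and -0.078 in knockout cells, and the 29 with the most (6 to 30) had 0.083 and 0.13. The difference, fewest minus most, was -0.14 (-0.16 to -0.11) and -0.21 (-0.24 to -0.19), so gene-rich bins had the higher preference. Without chromosome 16 the difference was -0.070 and -0.12. Of the 29 gene-poorest bins 6 were called higher and 11 lower in each library, and of the 29 gene-richest 16 were called higher and 3 lower in wild-type cells and 21 and 2 in knockout cells. Over all bins the shares called higher and lower were 34.1% and 27.3% in wild-type cells and 42.0% and 26.1% in knockout cells. The correlation of preference with gene count was 0.43 and 0.42 across bins, but distance and gene count were themselves correlated at 0.33.

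Within bins of like position the relation with gene count was weaker. In the near, middle and far part of the stretch, of 29, 30 and 29 bins, the difference between gene-poor and gene-rich bins was -0.037 (-0.091 to 0.017), -0.074 (-0.11 to -0.034) and -0.061 (-0.11 to -0.016) in wild-type cells. In the knockout library it was -0.058 (-0.11 to -0.00061), -0.086 (-0.13 to -0.041) and -0.11 (-0.16 to -0.052). The near part had only 3 gene-rich bins. Within bins of like gene count the step with distance stayed close to its value over all bins. It was -0.35, -0.34 and -0.33 in the gene-poor, middle and gene-rich bins of wild-type cells and -0.59, -0.61 and -0.54 in those of knockout cells. With distance removed by a linear fit, the correlation of preference with gene count was 0.31 and 0.29, with GC content 0.49 and 0.53, with repeat content -0.47 and -0.45, and with the A/B compartment track computed from cis contacts 0.47 and 0.50.

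**Figure D5:**
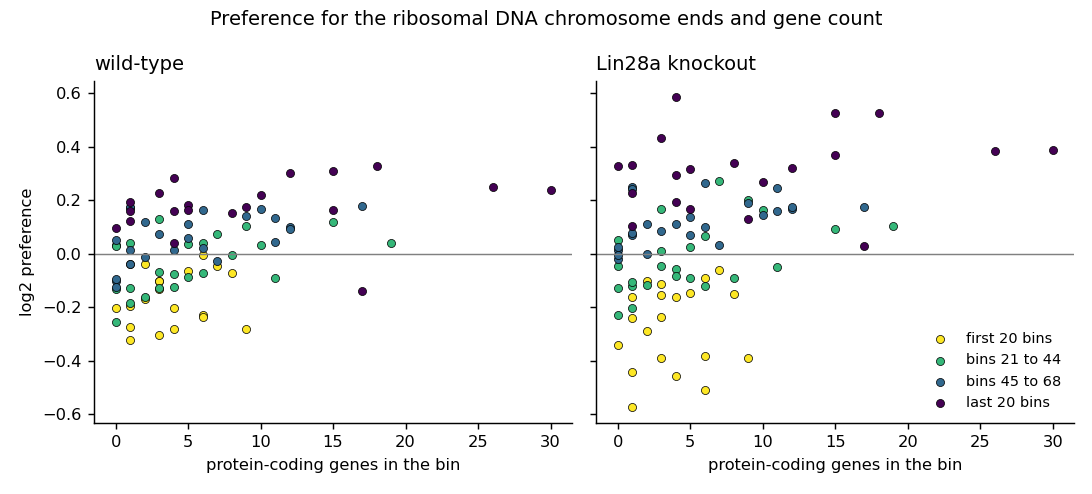
Preference of each bin against its number of protein-coding genes, coloured by position along chromosome 1 from the first 20 bins (yellow) to the last 20 (dark violet). All of the first 20 bins lie below all of the last 20 in both libraries, except for the bin from 88 to 89 Mb with 17 genes, at -0.14 in wild-type cells.

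Partners differed in their relation with gene count too. The gene-poor minus gene-rich difference was -0.34 (-0.39 to -0.30) and -0.50 (-0.55 to -0.45) for chromosome 16, -0.20 and -0.38 for chromosome 19 and -0.11 and -0.17 for chromosome 12. The gene-rich ends of chromosomes 16 and 19 thus had the largest differences of the 5. For chromosome 18 it was -0.011 (-0.059 to 0.038) and 0.0014 (-0.053 to 0.056), within counting error, and for chromosome 15 it was positive, at 0.077 and 0.13. The 13 other ends ran from -0.14 (chromosome 4) to 0.21 (chromosome 5) in wild-type cells and from -0.14 (chromosome 4) to 0.22 (chromosome 3) in knockout cells, and that of chromosome 7, also gene-rich, had -0.029 (-0.089 to 0.032) and -0.063 (-0.13 to 0.0033). The bin from 88 to 89 Mb, with its many chromosome 4 pairs, is among the gene-rich bins. After chromosome 4 the lowest were chromosome 11 at -0.11 in wild-type cells and chromosome 17 at -0.14 in knockout cells. The values of chromosomes 12, 15 and 18 thus lay within the range of the other ends in wild-type cells, as did those of chromosomes 15 and 18 in knockout cells.

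Ranked by the smaller absolute preference of the libraries, the 5 highest bins called in both lay in the far part. In knockout cells alone, other bins such as that from 89 to 90 Mb, at 0.43, were higher than some of these. The bin from 87 to 88 Mb, with *Gigyf2* (a repressor of translation), *Inpp5d* (an inositol phosphatase of blood cells) and *Ngef*, had 1702 pairs with the 5 ends and a preference of 0.33 (0.24 to 0.41) in wild-type cells, and 1204 pairs and 0.53 (0.42 to 0.63) in knockout cells. The bin from 86 to 87 Mb, with *Dis3l2* (the exonuclease that degrades uridylated let-7 precursors), *Armc9* and *Psmd1* (a proteasome subunit), had 0.31 and 0.53. The bin from 85 to 86 Mb, with *C130026I21Rik*, *A630001G21Rik* and *Sp100* (a protein of nuclear bodies), had 0.30 and 0.32. The last bin, with *Iqca*, *Asb18* and *Ackr3* (a chemokine receptor), had 0.28 and 0.59. The bin from 75 to 76 Mb, with *Nhej1* (a factor of DNA end joining), *Speg* (a muscle kinase) and *Obsl1*, had 0.25 and 0.38.

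Ranked in the same way, the 5 lowest bins were all within 10 Mb of the start of the chromosome. The bin from 4 to 5 Mb, at -0.23 and -0.51, is not among them, although it was lower than most of them in knockout cells. The first bin, from 3 to 4 Mb, holds *Xkr4* and had 1463 pairs and a preference of -0.32 (-0.41 to -0.23) in wild-type cells and 1203 pairs and -0.57 (-0.67 to -0.48) in knockout cells. The bin from 6 to 7 Mb, with *St18* (a zinc finger transcription factor), *Rb1cc1* (an initiator of autophagy) and *Alkal1* (a receptor tyrosine kinase ligand), had -0.30 and -0.39. The bin from 5 to 6 Mb, with *Rgs20* (a regulator of G protein signalling), *Atp6v1h* (a subunit of the vacuolar proton pump) and *Oprk1* (the kappa opioid receptor), had -0.28 and -0.46. The bin from 9 to 10 Mb, with *Sntg1*, *Sgk3* (a protein kinase) and *Mcmdc2* (a meiotic recombination factor), had -0.28 and -0.39. The bin from 7 to 8 Mb, with *Pcmtd1*, had -0.27 and -0.44.

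The bins of 7 chosen genes for nucleolar, ribosomal and translation proteins are given as values, with no test of the group. *Rrs1* (a ribosome assembly factor) lies in the bin from 9 to 10 Mb described above, among the lowest. *Rpl7* (a large subunit protein) lies in a bin with -0.072 (-0.15 to 0.0087) and -0.15 (-0.24 to -0.065). *Rpl31* lies in a bin with 0.10 (0.024 to 0.18) and 0.20. The bin of *Nop58* (a core protein of the small RNPs that methylate ribosomal RNA) had 0.045 (-0.037 to 0.13) and 0.16, and that of *Eef1b2* (a translation elongation factor) had 0.13 and 0.25. *Rpl37a* lies in a bin with 0.22 and 0.27, and *Ncl*, which encodes nucleolin, shares the bin from 86 to 87 Mb with *Dis3l2*. These 7 bins therefore covered most of the range of preference.

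The third question was where the libraries differed. The preference was higher in knockout cells in 14 bins (15.9% of those compared) and lower in 8 (9.09%). In place of these 22 bins, 14 were called without chromosome 16 and 10 without chromosome 19. Of the 14 higher bins 12 lay in the last 20, and of the 8 lower bins 7 lay in the first 20. The median difference was -0.098 in the first 20 bins and 0.15 in the last 20. The largest gain was 0.30 (0.14 to 0.47), in the last bin, where 1086 pairs with the 5 ends against 2086 with the others in wild-type cells stood beside 806 against 1361 in knockout cells. The first bin had a difference of -0.25 (-0.38 to -0.13), from 1463 against 4276 pairs and 1203 against 4543. Across the 88 bins the difference correlated with distance at 0.73 and with gene count at 0.29, or 0.081 with distance removed. With 1 library per group, a difference between the libraries cannot be told apart from a difference between the genotypes.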

How the data were processed

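The authors deposited 1 list of valid Hi-C pairs per group. The submitters' processing notes name CASAVA 1.8, Bowtie2, HiC-Pro and mm10, and reads were 150 bp paired ends. The deposited mapping quality score was at least 11, the summed distance to restriction sites ran from 100 to 600 bp, and 0 pairs were repeated. The lists analysed here ended on chromosome 1 at 90862049 (wild-type) and on chromosome 2 at 42080638 (knockout), so only first ends between 3 and 90.75 Mb were compared. Raw pairs were counted with no balancing. Preferences have exact binomial intervals with totals taken as fixed, and pooled differences have log-normal intervals. On simulated pairs, in the wild-type comparison of 88 bins, 99.9% of bins changed by 0.3 and 5.94% of unchanged bins were called. Simulated bins were drawn independently with the error that the intervals assume. These shares therefore describe neither smaller preferences nor bins that resemble their neighbours. Genes came from GENCODE M21, counted by start site, and base and repeat content from GRCm38. Named bins were the 5 strongest in each direction that were called in both libraries, ranked by the smaller preference, with the 3 longest genes of each, plus the nucleolar and ribosomal genes listed. The members and lists were chosen with earlier results of these data known. Analyses used Python 3.11.15, numpy 2.4.6, pandas 2.3.3 and scipy 1.17.1.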

Additional observations from a re-analysis of the deposited data

Results flagged for a closer look

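Pairs that no comparison between the libraries used held the same kind of contact. The knockout list had 56316 pairs between the rest of chromosome 1, beyond the compared stretch, and the 5 ribosomal DNA chromosome ends, and 63794 pairs between chromosome 2 (3 to 42 Mb) and these ends. They were flagged because they lie outside the main measurement, which stops where the wild-type list analysed here ends. Along all of chromosome 1 in the knockout library, pooled preference was -0.37 from 3 to 19 Mb, -0.16 from 19 to 35 Mb and 0.25 from 83 to 99 Mb, then -0.083 (-0.12 to -0.043) from 99 to 115 Mb, and between 0.047 and 0.22 in the 5 remaining steps of 16 Mb. The rise with distance therefore did not continue beyond 99 Mb. On chromosome 2, against the 12 remaining autosomes, the first 10 minus the last 10 bins gave -0.34 (-0.38 to -0.31), where the same stretch and partners on chromosome 1 gave -0.45 (-0.49 to -0.41). By partner it was -0.37 for chromosome 12, -0.54 for chromosome 16, -0.20 for chromosome 18, -0.71 for chromosome 19 and 0.23 for chromosome 15, the same signs as on chromosome 1. The ends' own near over far ratio, with no division by the other ends, differed in sign between these stretches, at 0.40 (0.37 to 0.44) on chromosome 2 and -0.073 (-0.11 to -0.039) on chromosome 1, where the other ends had 0.75 and 0.38.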

How the results depend on the processing

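No paired analysis was possible because each group has 1 library. The step with distance and the difference by gene count kept their sign in 16 of 17 alternatives in each library, and the ratio of end shares stayed below 1 in 12 of 13. With the sequence beyond 23 Mb in place of the ends, the step was 0.088 (wild-type) and 0.047 (knockout) and the gene difference 0.068 and 0.065. Of the 88 bins, 40 were still called in wild-type cells and 30 in knockout cells, and 12 differences were called. In the smaller sequencing runs the ratio of end shares was 1.018, the step -0.40 and -0.64, the wild-type gene difference -0.11, and 17, 15 and 8 bins were called (wild-type, knockout, difference), from fewer pairs. With ends of 10 Mb the step was -0.41 and -0.68 and the gene difference -0.18 and -0.28. With ends from 5 to 23 Mb the knockout step was -0.56 and 14 differences were called, and with partners scaled to the same total it was -0.56. The first and last 10 bins gave -0.44 and -0.74, and the 17 bins at each extreme of gene count -0.25 and -0.37. With 2 Mb bins 33 and 38 of 44 were called (75.0% and 86.4%, against 61.4% and 68.2% of the 88 bins). Without chromosome 4, chosen after seeing the data, the step was -0.38 and -0.64. Leaving out each of the 5 chromosomes in turn gave steps from -0.46 (without 15) to -0.27 (without 16) and from -0.75 (without 15) to -0.48 (without 19), gene differences from -0.18 to -0.070 and from -0.28 to -0.12 (lowest without 15 and highest without 16 in each library), end share ratios from 0.967 to 0.981, 44 to 60 and 49 to 66 called bins, and 10 to 27 called differences. The cause was not tested. Mapping quality of 30 and the other autosomes without 6 and 8 moved none of these by more than the counting interval or 1.5 times. Nor did reweighting by gene class for the steps, gene differences and called bins, and it was not run for the end share ratio. The sets already had a like mix of gene classes (up to 4 genes in 49.0% and 48.5% of windows), so this setting could move little. Counting error alone is covered, and the knockout line is 1 library of unstated source.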
